A study of Mus musculus with 82 samples.

Results

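Nascent RNA on 7 genes of nucleolar ribosome biogenesis was followed in mouse embryonic stem (ES) cells by 3 run-on assays: Ncl, Npm1, Nop56, Nop58, Fbl, Dkc1 and Nolc1, out of 24755 annotated genes. The genes were listed by name, with earlier results of these data known, and no read count was used to choose among them. Each was taken as its RefSeq span on GRCm38, in which sense reads on annotated small RNA genes with 20 bp on either side were counted apart from all other sense reads. The cells were wild-type, untreated V6.5 ES cells, a line derived from 1 hybrid embryo (C57BL/6 × 129/sv) and grown on gelatin with serum and leukaemia inhibitory factor. In all assays nuclei were allowed to extend their nascent RNA with 3′-(O-propargyl)-NTPs, which mark the RNA for conjugation by click chemistry. AGTuC, named for its use of click chemistry on the whole transcriptome, is the bulk version, in which sarkosyl opens the nuclei, and has 2 libraries, both of Exp125c. Intact-nuclei AGTuC (inAGTuC) uses less sarkosyl on groups of whole nuclei in the wells of a plate and has 4 libraries, Exp208 c12, Exp208 c14, Exp234 c11 and Exp261 c16. In scGRO–seq each well receives 1 intact nucleus, and 2512 cells of 10 batches passed the minimums of 1000 UMIs and 750 genes (Exp156, Exp160, Exp208, Exp211, Exp236, Exp246, Exp260, Exp260b, Exp263 and Exp264a). Cells of other deposited scGRO–seq batches also passed, but those batches were set aside and entered alternatives only. The 10 batches of scGRO–seq and the libraries of the other assays were taken as samples, which gives 16. Nothing in the labels says that samples of an assay came from separate cultures, so that p-values measure the spread between these samples only, and assay and experiment cannot be told apart for AGTuC.

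The samples held between 223119 and 4928371 reads, and a kept cell held a median of 3436 UMIs (1177 to 51431). The list of Exp261 c16 was deposited under both assays, with 99.7% of the reads of the scGRO–seq list in the inAGTuC list of that name, and which assay it belongs to was not settled. It was used as inAGTuC and entered no scGRO–seq count. A read that recurred with its position, strand, barcode and UMI in another library was not counted anywhere, which took 28.9% of scGRO–seq reads, 16.8% of inAGTuC reads and 0.33% of AGTuC reads. On the 7 genes it took 25.2% of the scGRO–seq reads on small RNA genes and 49.3% of those outside them, so that this step bears on both the levels and the shares. All 288 cell barcodes occurred in more than 1 library. All 10 ES cell markers, Pou5f1, Sox2 and Nanog among them, were seen in every assay, with a summed level of 59.4 to 160 in scGRO–seq, 80.3 to 98.7 in inAGTuC and 206 to 208 in AGTuC (RPKM, defined below). The 4 markers of endoderm and the 3 of trophoblast were also seen in every assay. The 7 of fibroblasts and feeder cells were all seen in scGRO–seq and inAGTuC, and 2 of them in AGTuC. Markers of fibroblasts and feeder cells summed to at most 6.11 in any sample, those of endoderm to at most 25.1 and those of trophoblast to at most 19.6. These sums are over lists of unequal length, and the part of such cells in the results was not tested.

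Ribosome biogenesis starts in the nucleolus, where RNA polymerase I makes the precursor of ribosomal RNA, and small nucleolar RNAs (snoRNAs) guide its chemical modification. Box C/D snoRNAs carry Fbl (fibrillarin), the methyltransferase, with Nop56 and Nop58 as core proteins, and box H/ACA snoRNAs carry Dkc1 (dyskerin), the pseudouridine synthase. Ncl (nucleolin) binds precursor rRNA, Npm1 (nucleophosmin) is an abundant chaperone of the granular part of the nucleolus, and Nolc1 (Nopp140) binds snoRNPs and escorts them. Most mammalian snoRNAs lie in introns of other genes, are cut out of the spliced intron by exonucleases and are then kept as stable RNA, so that genes such as Ncl, Nop56 and Nop58 make both a protein and the RNAs that the protein family works with.

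The spans hold 13 annotated small RNA genes on the sense strand: 3 in Ncl, 5 in Nop56, 4 in Nop58 and 1 in Dkc1, and none in Npm1, Fbl and Nolc1. Ncl lies at chr1:86344719-86359455 on the minus strand, Nop56 at chr2:130274412-130279313, Nop58 at chr1:59685006-59711510 and Dkc1 at chrX:75095854-75109776, the last 3 on the plus strand. Npm1 lies at chr11:33152498-33163206 on the minus strand, Fbl at chr7:28169748-28179269 and Nolc1 at chr19:46075847-46085543, both on the plus strand. The sequences below are those of 8 of these small RNA genes, shown because most reads of Ncl, Nop56 and Nop58 in intact nuclei fell on such genes and because the place where the RNA ends is what the reads turn on. They were read from the GRCm38 genome on the RNA strand, 5′ to 3′, with T for U, from the annotated start to 10 bases after the annotated end, and capitals mark the bases at which at least 5% of the scGRO–seq reads of that gene had their RNA 3′ end.
Snord82 (Ncl, chr1:86356250-86356327, minus strand): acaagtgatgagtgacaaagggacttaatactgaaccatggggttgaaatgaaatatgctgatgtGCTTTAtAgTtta
Snora75 (Ncl, chr1:86351160-86351285, minus strand): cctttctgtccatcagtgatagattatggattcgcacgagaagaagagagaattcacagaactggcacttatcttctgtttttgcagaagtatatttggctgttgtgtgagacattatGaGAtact
Gm24148 (Ncl, chr1:86351971-86352127, minus strand): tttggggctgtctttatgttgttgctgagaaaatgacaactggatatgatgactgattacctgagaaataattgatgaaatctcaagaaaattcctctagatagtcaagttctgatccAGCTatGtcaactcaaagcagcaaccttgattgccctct
SNORA51 (Nop56, chr2:130276237-130276379, plus strand): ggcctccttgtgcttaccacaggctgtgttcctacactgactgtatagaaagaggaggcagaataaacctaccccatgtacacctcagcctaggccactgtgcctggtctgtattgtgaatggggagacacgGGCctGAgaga
SNORD56 (Nop56, chr2:130277697-130277776, plus strand): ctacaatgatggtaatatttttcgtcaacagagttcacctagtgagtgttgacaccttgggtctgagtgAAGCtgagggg
Snord57 (Nop56, chr2:130278026-130278098, plus strand): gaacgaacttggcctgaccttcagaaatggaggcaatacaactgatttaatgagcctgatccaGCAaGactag
SNORD86 (Nop56, chr2:130277195-130277290, plus strand): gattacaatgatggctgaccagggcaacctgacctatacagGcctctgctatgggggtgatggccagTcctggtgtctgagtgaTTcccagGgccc
Snord11 (Nop58, chr1:59704808-59704880, plus strand): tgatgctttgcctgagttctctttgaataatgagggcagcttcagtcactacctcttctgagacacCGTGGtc
In Snord82 and Snord57 the capitals are a short run near the end of the printed sequence, after the ctga of the box D motif, and in SNORD86 they are scattered over the gene.

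Reads on small RNA genes made up most of the sense reads of Ncl, Nop56 and Nop58 in scGRO–seq and in 3 of the 4 inAGTuC libraries, and few in AGTuC. In Ncl they were 74.7% to 91.5% of the reads of a scGRO–seq batch, with a median of 86.9%. In the inAGTuC libraries Exp208 c12, Exp208 c14, Exp234 c11 and Exp261 c16 the share in Ncl was 79.8%, 74.2%, 22.7% and 87.9%, and in the AGTuC libraries c01 and c02 it was 1.74% and 2.36%. The inAGTuC library Exp234 c11 was far below the other inAGTuC libraries, and no AGTuC library came near any sample of the other assays. In Nop56, which holds more small RNA genes per kb than the other 6 spans, the share ran from 89.9% over a median of 94.8% to 98.4% in scGRO–seq. It was 97.9%, 84.4%, 76.2% and 96.7% in the inAGTuC libraries in the same order, against 13.1% and 13.6% in AGTuC. Nop56 thus had the highest share of the 4 host genes in every sample, AGTuC included. In Nop58 the share was 55.2% to 91.2% in scGRO–seq, with a median of 77.2%. It was 90.8%, 57.8%, 23.5% and 81.7% in inAGTuC and 1.72% and 2.63% in AGTuC. Again Exp234 c11 was the lowest library of intact nuclei, and AGTuC did not overlap with the other assays. The 95% Wilson interval of a single share of these 3 genes was at most 21.7 percentage points wide, and such intervals cover counting error only. Dkc1 had no small RNA read in 8 of the 10 scGRO–seq batches and in any inAGTuC library, and its share reached 5.88% in Exp263.

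**Figure D1:**
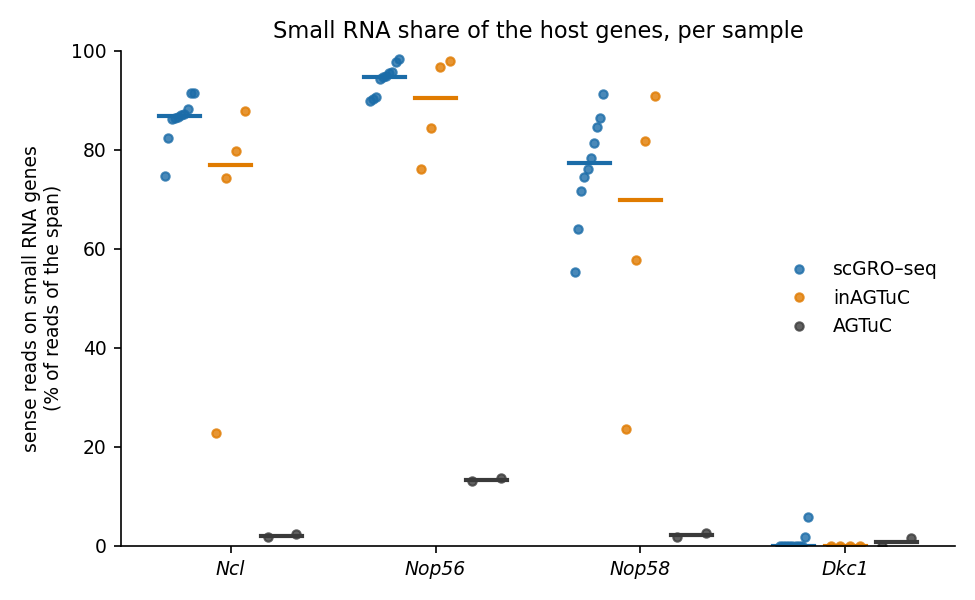
Share of sense reads that fell on small RNA genes (y axis, % of the sense reads of the span) in the 4 host genes, with 1 point per sample and the median as a bar. In Ncl, Nop56 and Nop58 both AGTuC libraries lie at 13.6% or below and the inAGTuC library Exp234 c11 is the lowest of intact nuclei in Ncl and Nop58, and Dkc1 is near 0% in all assays.

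The shares were tested with limma on the log2 ratio of small RNA reads to other reads of the span, over the 615 host genes with enough reads. Against AGTuC, 3 of the 4 hosts had a higher ratio in inAGTuC, where 34.5% of all hosts tested were called higher and 4.07% lower, and the median difference of all hosts was 1.76. Ncl was higher by 6.73 on the log2 scale (SE 1.04, adjusted p = 2.57e-06), Nop56 by 6.29 (SE 1.07, adjusted p = 5.42e-06) and Nop58 by 6.53 (SE 1.09, adjusted p = 4.49e-06). For Dkc1 the fit gave no usable value: it had 0 small RNA reads in all 4 inAGTuC libraries and 4 in AGTuC, all in c02, so that its fitted difference of 1.27 (SE 1.03, adjusted p = 0.316) rests on the 0.5 added to counts of 0 in libraries of unequal depth and runs against the counted reads. Without Exp234 c11 the differences were 7.69 for Ncl, 6.94 for Nop56 and 7.44 for Nop58, and the smallest value with any sample left out was 5.66, for Nop56 without Exp208 c12. Between scGRO–seq and inAGTuC limma called 0 of the 4 hosts and 0% of all 615, of which 36 had an unadjusted p under 0.05. Ncl was among those 36, with a difference of 1.54 (SE 0.71, unadjusted p = 0.0352, adjusted p = 0.656). Both comparisons use the same inAGTuC libraries. Within Exp208, the only experiment with both assays among the 10 batches, the share in Ncl was 82.4% in scGRO–seq and 79.8% and 74.2% in inAGTuC, and in Nop58 it was 71.7% against 90.8% and 57.8%. Exp261 also has scGRO–seq cells, outside the 10 batches, with shares of 91.6% in Ncl and 84.4% in Nop58 against 87.9% and 81.7% in its inAGTuC library.

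The reads on these small RNA genes ended near the end of the annotated RNA more often in scGRO–seq than in AGTuC, and inAGTuC libraries differed among themselves. The 13 genes held 27744 reads in scGRO–seq, 7638 in inAGTuC and 279 in AGTuC, and 78.2%, 65.6% and 29.4% of them had the RNA 3′ end within 10 bases of the annotated end. By sample it was 38% to 85.8% in the scGRO–seq batches, 53.7%, 47.9%, 25.7% and 70.4% in the inAGTuC libraries Exp208 c12, Exp208 c14, Exp234 c11 and Exp261 c16, and 32.9% and 27.9% in AGTuC. All scGRO–seq batches were above AGTuC, and Exp234 c11, with 152 reads, was below it. Exp261 c16, the library deposited under both assays, gave 5895 of the 7638 inAGTuC reads, and without it the pooled inAGTuC value was 49.3%. The other 1318 annotated snoRNA genes of the genome had 88%, 72.9% and 24.6%, so that the small RNA genes of these hosts had the same order of assays as snoRNAs in general. The 13 genes include Gm24148, annotated by RefSeq as a microRNA gene. It had 1 of 2042 scGRO–seq reads and 5 of 387 inAGTuC reads in this window, which lowers the pooled values of the hosts. All snoRNA genes together took 5.4% of scGRO–seq reads, 3.95% of inAGTuC reads and 0.128% of AGTuC reads.

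In scGRO–seq the most-read end lay a few bases after the end annotated by RefSeq in most of the genes. It was 5 bases after it in Snora75, where 44.1% of 2403 reads ended at this 1 base, and 36.6% of 729 reads did in inAGTuC. Of these 729 reads, 679 were of Exp261 c16, the library deposited under both assays, so the inAGTuC value is mainly that of 1 library. Snord82 had ends at several neighbouring bases, the most-read of them 2 bases after the annotated end with 17.1% of 5365 reads. This matches the printed sequences, in which Snora75 has 3 capitals and Snord82 has 8. In Nop56, the most-read end was 6 bases after the annotated end in Snord110 and SNORA51, 3 bases after it in SNORD56, with 26% of 2794 reads, and 5 bases after it in Snord57, with 30% of 1626 reads. In Nop58, it was 7 bases after the annotated end in Snord70 and 6 bases after it in Snord11, with 23% of 2769 reads. The remaining snoRNAs of Nop58, a second SNORD70 and SNORD11B, had it 3 bases and 1 base before the annotated end. Snord70 and the second SNORD70, and Snord11 and SNORD11B, are related sequences, and reads that map to both of a pair can have been placed on either.

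These distances depend on the annotation, since the end in GENCODE gives another distance for 6 of the 13 genes. From the GENCODE end the most-read end lay 3 bases before it in Snord70, where it is 7 bases after the RefSeq end, and 3 bases after it in Snord11, where it is 6 bases after the RefSeq end. In Snora75, Snord82 and Snord57 the distance moved by 1 base. Gm24148 in Ncl is annotated by RefSeq as a microRNA gene of 147 bp, and its 2042 scGRO–seq reads had their most-read end 26 bases before the RefSeq end. GENCODE names a snoRNA of 80 bp under the same symbol, and the most-read end lay 1 base after the end of that model. On the RNA strand, ctga was found in the last 15 bases of 8 of the 12 genes that RefSeq names as snoRNA, against 33.2% of all 1330 annotated snoRNA genes. A second motif, tgatga in the first 20 bases, was in 2 of the 12 (16.7%) against 21.9%. Both motifs together were in 16.7% against 20.6%. Box C/D and box H/ACA genes were not separated in these counts. The genes below are those with ctga in the last 15 bases. In 7 of the 8 with ctga, Snord82, Snord110, SNORD56, Snord57, Snord70, SNORD11B and Snord11, the most-read end lay 7 to 10 bases after the last base of the final ctga within the annotated gene, and in SNORD86, with its few reads, it lay 12 bases after it. The second SNORD70, whose ctga starts just before the last 15 bases, had it 9 bases after, and Gm24148 had it 6 bases after. A match of letters is a description and no evidence of a working box.

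SNORD86 and Gm25520 stood apart from the other small RNA genes of the hosts. SNORD86 lies in Nop56 and has been described in human cells as an element within the transcript that regulates its splicing. It had 58 reads in scGRO–seq, where the other 4 small RNA genes of Nop56 had 1626 to 6285. Scaled to all reads and pooled per assay, SNORD86 had 4.99 RPM (reads per 1000000 reads) in scGRO–seq, 5.5 in inAGTuC and 4.15 in AGTuC, while SNORA51, in the same transcript, had 541, 520 and 8.87. Exp261 c16, the library deposited under both assays, gave 1794 of the 2269 inAGTuC reads of SNORA51 and 15 of the 24 of SNORD86. The levels of SNORD86 overlapped between all assays, with 0 to 18.4 in scGRO–seq batches, 0.684 to 11.2 in inAGTuC and 3.36 and 5.82 in AGTuC. SNORA51 ran from 160 to 1861 in scGRO–seq and from 53.4 to 1233 in inAGTuC, above the 7.17 and 9.67 of AGTuC in every sample. Gm25520, a copy of the SNORA36 family in Dkc1, had 4 reads in scGRO–seq, 4 in AGTuC and 0 of 4362245 in inAGTuC, which allows up to 0.688 RPM.

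**Figure D2:**
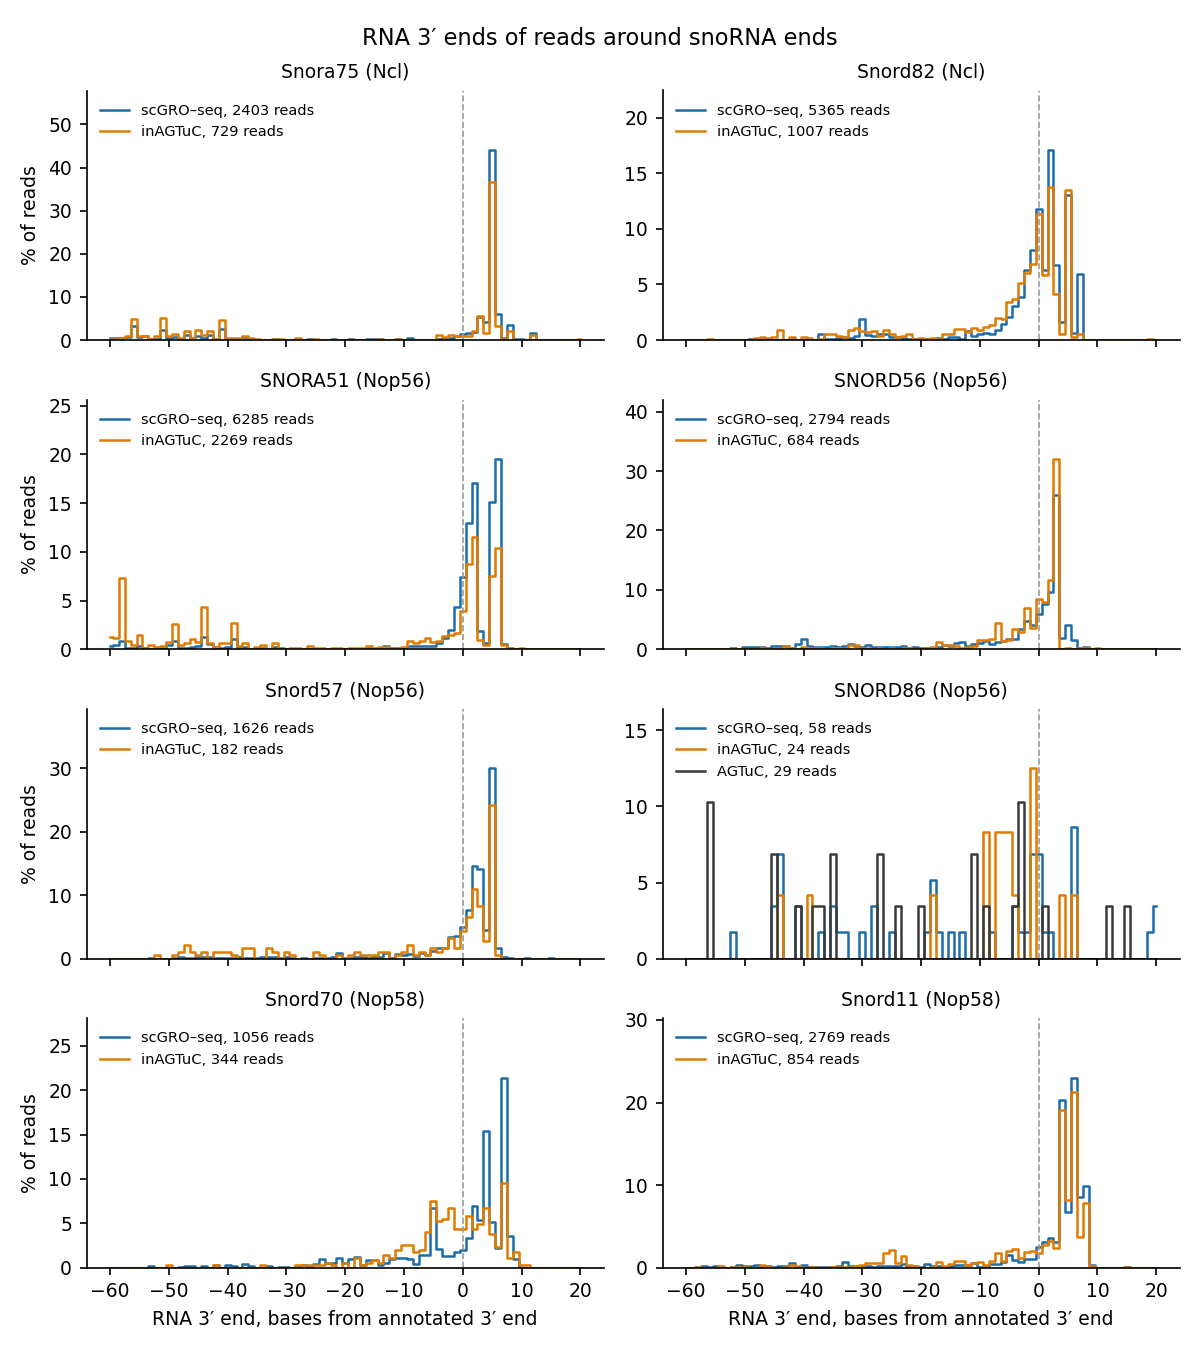
Position of the RNA 3′ end of reads relative to the annotated end of 8 snoRNA genes (x axis, bases; dashed line, annotated end; y axis, % of the reads of the gene in that assay). scGRO–seq and inAGTuC peak within a few bases after the dashed line in 7 of the 8 genes, while SNORD86, the only gene for which AGTuC is drawn, has 58, 24 and 29 reads without a main peak. Over the 13 small RNA genes, Exp261 c16, the library deposited under both assays, gave 5895 of the 7638 inAGTuC reads.

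Outside the small RNA genes, 6 of the 7 genes had a lower level in inAGTuC than in AGTuC, a call that for most of them depended on the samples and settings used, and 0 were called between scGRO–seq and inAGTuC. The level is given as RPKM, here the number of reads per kb of counted span and 1000000 sense reads on genes outside small RNA genes. Because it is relative, fewer transcribing polymerases on a gene and more on other genes cannot be told apart. Ncl had 11 to 30 RPKM in scGRO–seq batches, with a median of 18.4, then 13, 10.9, 10.4 and 22.7 in the inAGTuC libraries (in the order given above) and 66 and 61.6 in AGTuC. Both AGTuC libraries had more than any sample of intact nuclei. Npm1 had 11.7 to 24.5 in scGRO–seq, with a median of 21.7. In inAGTuC it had 13.9, 14.7, 10.6 and 35.4, against 34.6 and 34.3 in AGTuC. Exp261 c16 was above both AGTuC libraries for Npm1, the only gene of the 7 for which inAGTuC and AGTuC overlapped.

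Among the box C/D proteins, Nop56 had the highest median level of the 7 genes in scGRO–seq, 26.5, with batches from 13 to 57.8. Its range overlapped that of Npm1, which it exceeded in 8 of 10 batches. It had 8.44, 22.7, 17.8 and 33.3 in inAGTuC and 54.9 and 51.1 in AGTuC, so that only the scGRO–seq batch Exp156 exceeded AGTuC. Nop58, the longest span, had 6.89 to 15.3 (median 9.12) in scGRO–seq, 6.33, 7.63, 5.46 and 13.9 in inAGTuC and 15.9 and 14.6 in AGTuC. Fbl had the lowest median level in every assay, at 0.899 to 5.52 (median 2.97), then 1.69, 1.82, 1.61 and 2.31, and 6.02 and 5.9. For Fbl these values rest on few reads, 2 to 61 per scGRO–seq batch and 4 to 16 per inAGTuC library. Dkc1 had 2.18 to 8.99 (median 5.17) in scGRO–seq, 4.38, 2.67, 3.97 and 5.28 in inAGTuC and 6.64 and 6.27 in AGTuC. Nolc1 had 3.09 to 11.4 (median 5.96), then 5.39, 4.68, 7.22 and 6.51, and 9.87 and 11.1. In Nop58, Dkc1 and Nolc1 the highest scGRO–seq batches reached the AGTuC values, whereas the inAGTuC libraries stayed under both.

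**Figure D3:**
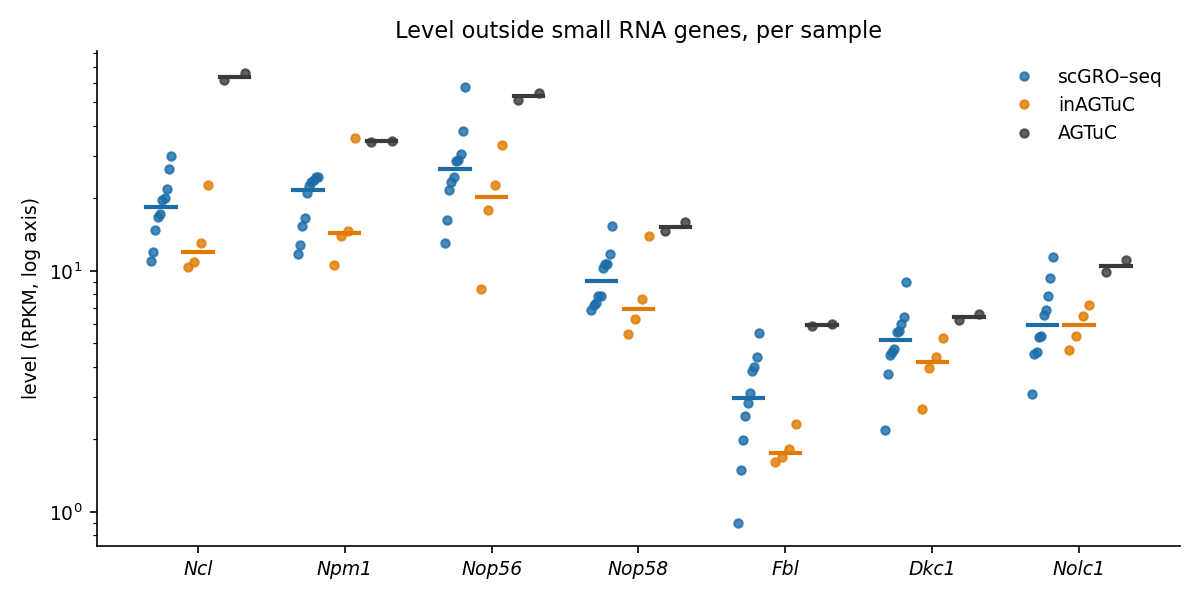
Level outside small RNA genes (y axis, RPKM, log axis) of the 7 genes, with 1 point per sample and the median as a bar. AGTuC lies above every inAGTuC library in all genes except Npm1, and the scGRO–seq and inAGTuC points overlap in all 7.

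By limma, fitted over all 9803 genes with enough reads, 6 of the 7 genes were lower in inAGTuC than in AGTuC, where 19.9% of all genes were called lower and 18.1% higher. Ncl fell by 2.21 on the log2 scale (SE 0.33, adjusted p = 0.00011), a 4.63-fold difference over the whole span. With the span cut into 10 equal parts, the last 3 held 19%, 8.48% and 16.2% of the AGTuC reads of Ncl. In inAGTuC they held 4.27%, 4.03% and 1.66%, so part of the difference lies there, and no fit was made without them. Fbl fell by 1.56 (SE 0.37, adjusted p = 0.00296) and Nop56 by 1.36 (SE 0.38, adjusted p = 0.00884). Fbl had 10 reads or more only in both AGTuC libraries, inAGTuC Exp261 c16 and scGRO–seq Exp236, Exp260b and Exp263. It thus met the minimum of 6 samples only through AGTuC, where its level is high, and its call is weak for that reason. It was not tested with any 1 of these samples left out. Npm1, Nop58 and Nolc1 fell by 1.00, 0.93 and 0.79, with adjusted p = 0.0326, 0.0248 and 0.0429. Dkc1 differed by -0.66 (SE 0.31, adjusted p = 0.105). The median difference of the 7 was -0.998, against -0.158 for all genes tested. Only Ncl was called without either of the AGTuC libraries, when Fbl had too few samples with reads to be tested, and 3 genes were called without inAGTuC Exp208 c12. With 1 sample left out, Nolc1 lost its call without AGTuC c01 or c02, inAGTuC Exp208 c12, Exp208 c14 or Exp261 c16, or scGRO–seq Exp236 or Exp260 (adjusted p = 0.0503 to 0.229), Npm1 without AGTuC c01 or c02 or inAGTuC Exp208 c12, Exp208 c14 or Exp234 c11 (0.065 to 0.153), Nop58 without AGTuC c01 or c02 or inAGTuC Exp208 c12 or Exp234 c11 (0.0545 to 0.144), and Nop56 without AGTuC c01 or c02 (0.0658 and 0.0675). With the first 500 bp of the genes left out, Npm1, Nop58 and Nolc1 were not called, at -0.94, -0.72 and -0.50 (adjusted p = 0.0695, 0.106 and 0.249). Nolc1 was also not called with a mapping quality of at least 20 (adjusted p = 0.0627) or with the UMI minimum alone (adjusted p = 0.0559). With all deposited reads, shared ones included, 3 of the 7 were called lower. With the scGRO–seq batches outside the 10 added, which enter through the common estimate of the spread, Fbl alone was called (-1.59, adjusted p = 0.0211), with Ncl at -2.21 (adjusted p = 0.0658) and Nop56 at -1.43 (adjusted p = 0.0931). With the experiment as a random block, chosen after seeing the data, Ncl, Nop56 and Fbl were called, at -2.21, -1.44 and -1.72 (adjusted p = 0.0011, 0.0435 and 0.00702), and Npm1, Nop58 and Nolc1 were not (adjusted p = 0.0732, 0.0614 and 0.081). Exp261 c16, the library deposited under both assays, had the highest inAGTuC level of all 7 genes except Nolc1, and without it the differences were -2.49 for Ncl, -1.67 for Nop56, -1.41 for Npm1, -1.23 for Nop58 and -0.85 for Dkc1.

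The scaling moved all genes together: with the median of ratios the median of all genes was 0.06, 13.8% were called lower and 22.2% higher, and 3 of the 7 were called lower, whereas scaled to all reads it was -0.66, with 27.4% lower and 11.9% higher, and 7 of the 7 were called. All 7 lay below the median of all genes under each of the 3 scalings, and their median was 0.84 to 0.88 below it.

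Between scGRO–seq and inAGTuC, the difference ran from -0.01 for Nolc1 to 0.42 for Fbl, and limma called 0 of the 7 genes and 0% of the 9803. At an unadjusted p under 0.05 there were 758 genes, 7.73% of those tested, and 0 of the 7. This comparison uses the inAGTuC libraries that the one with AGTuC uses. Within Exp208, Ncl had 17.2 in scGRO–seq and 13 and 10.9 in inAGTuC, and Nop56 had 30.6 against 8.44 and 22.7. Within Exp261, with few reads in scGRO–seq, the order was the other way, with 6.9 (16 reads) in scGRO–seq and 22.7 in inAGTuC for Ncl, and 14.4 (10 reads) against 33.3 for Nop56.

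By median level, the order of the genes differed between bulk and intact nuclei in the first 3 places only. AGTuC had Ncl, Nop56, Npm1, Nop58, Nolc1, Dkc1 and Fbl, and neighbours in this order did not overlap. The AGTuC level of Ncl includes its many reads toward the 3′ end of the span, and the order was not taken without them. scGRO–seq and inAGTuC both had Nop56, Npm1, Ncl, Nop58, Nolc1, Dkc1 and Fbl. In scGRO–seq, Npm1 was above Ncl in 5 of 10 batches and Nop56 above Npm1 in 8 of 10, and the ranges of all neighbours overlapped, so that the first 3 places were not separated. Ncl was above Nop58 in all 10 batches and in all 4 inAGTuC libraries.

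Other genes of ribosome biogenesis were taken from a list of 120 names, of which 117 were in the annotation and 101 had enough reads. Against AGTuC, 36 of the 101 were lower in inAGTuC and 1 was higher, with a median of -0.609, where 19.9% of all genes were lower and 18.1% higher with a median of -0.158. By step, 4 of 10 genes of the polymerase I machinery were lower, 6 of 38 of the small subunit and 21 of 43 of the large subunit. Of 10 genes of the snoRNP and its assembly, 5 were lower and 1 was higher. The genes with the largest fall were Ppan, a large subunit factor with 2 small RNA genes of its own (-1.93, SE 0.300, adjusted p = 0.000163), Gar1, a partner of Dkc1 in the H/ACA snoRNP (-1.85, SE 0.416, adjusted p = 0.0022), and the helicase Ddx54 (-1.84, SE 0.362, adjusted p = 0.000887). Gar1 had 10.7 and 10.5 in AGTuC and 1.35 to 4.33 in inAGTuC, without overlap. Shq1, an assembly chaperone of Dkc1, was the 1 gene that was higher, by 1.27 (SE 0.273, adjusted p = 0.00159), with 1.34 to 1.77 in inAGTuC and 0.642 and 0.624 in AGTuC. The 3 genes of the list with most reads, Taf1d, Wdr43 and Utp20, were not called (adjusted p = 0.427, 0.2 and 0.729). Between scGRO–seq and inAGTuC limma called 0 of the 101, and the median was 0.0784. Small RNA reads were 75% of the scGRO–seq reads of Taf1d, 66.3% of those of Wdr43 and 90.1% of those of Ppan, shares of the kind seen in Ncl and Nop58.

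A smaller part of the scGRO–seq reads than of the AGTuC reads lay in the first 500 bp of the genes when reads were pooled, and no member passed the test between inAGTuC and AGTuC. With reads pooled per assay, this promoter share in AGTuC was 7.81% in Ncl, 13.4% in Npm1, 32.1% in Nop56, 19.6% in Nop58, 29.2% in Fbl, 16.7% in Dkc1 and 26.7% in Nolc1. In inAGTuC it was 4.98%, 6.85%, 14%, 5.41%, 8.57%, 6.36% and 9.82% in the same order, and in scGRO–seq it was 3.67%, 6.93%, 12.3%, 4.6%, 8.59%, 6.61% and 9.39%. The pooled share was lower in scGRO–seq than in AGTuC for all 7 genes with this window of 500 bp. By batch, no scGRO–seq batch reached AGTuC in Nop56, Nop58 and Fbl, where the highest batches had 23.8%, 15.1% and 15.4%. In the other 4 genes at least 1 batch did, with 32.4% (11 of 34 reads), 20% and 13.2% for Npm1 in Exp156, Exp264a and Exp208, against 14.9% and 12.7% in AGTuC, and with 7.5% for Ncl, 28.6% for Dkc1 and 28.6% for Nolc1 in Exp211. The pooled share in inAGTuC depended on Exp261 c16, the library deposited under both assays, which gave 41.1% to 63% of the inAGTuC reads of a gene. Without it the pooled share was 8.6% in Ncl and 13.6% in Npm1, above AGTuC, and 21.3%, 8.08%, 15.8%, 8.77% and 13.6% in Nop56, Nop58, Fbl, Dkc1 and Nolc1, below AGTuC. With 250 bp the log2 ratio used in the test was higher in inAGTuC than in AGTuC by 0.30 for Ncl, 0.27 for Npm1 and 1.06 for Dkc1.

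By library, Nop58 had 18.4% and 20.2% in AGTuC and 2.44%, 5.43%, 15.4% and 3.41% in inAGTuC. Dkc1 had 15.1% and 17.5% against 6.67%, 11.8%, 8% and 3.77%, and Nolc1 had 28% and 26.2% against 7.69%, 19%, 12.5% and 4.35%. In these 3 genes no inAGTuC library reached AGTuC, and in the other 4 at least 1 did, for example Ncl in Exp208 c14 at 8.33% and in Exp234 c11 at 11.8%, where AGTuC had 7.08% and 8.18%. These shares are imprecise, with Wilson intervals of 3.96 to 15.5 percentage points for Ncl in inAGTuC and 10.5 to 54.5 for Nop56.

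For the test, limma was run on the log2 ratio of reads in the first 500 bp to reads in the rest of the span, over 5419 genes, and Fbl had too few reads to enter. Against AGTuC 0 of the other 6 were called lower in inAGTuC, where 50.9% of all genes were called lower and 1.18% higher, and none of the 6 had an unadjusted p under 0.05. Their differences ran from -0.34 for Ncl to -1.92 for Nop58 (SE 1.00, adjusted p = 0.0983), with a median of -0.949, and the median of all genes was -2.42. Without inAGTuC Exp234 c11, Nop58 was called, at -2.44 (adjusted p = 0.0371), and without Exp261 c16 the difference of Ncl turned to 0.15. Between scGRO–seq and inAGTuC 0 of the 6 and 0% of the 5419 were called, and 165 of the 5419 had an unadjusted p under 0.05.

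Along the spans the read density was highest in the first part in AGTuC, and a smaller excess there was also seen in inAGTuC. Each span was cut into 10 equal parts. In AGTuC the first part of each of the 7 spans held 2.05 to 3.66 times the mean density, in scGRO–seq 0.806 to 1.56 times and in inAGTuC 1.06 to 2 times. Without Exp261 c16 the first part held 1.56 to 2.63 times the mean in inAGTuC, a range that overlaps that of AGTuC, while each gene was below its own AGTuC value. Ncl also differed toward its 3′ end, where the last 3 parts held 1.84, 0.822 and 1.57 times the mean in AGTuC, 0.413, 0.39 and 0.161 in inAGTuC (0.365, 0.313 and 0.261 without Exp261 c16) and 0.719, 0.494 and 0.479 in scGRO–seq. The most-read base in AGTuC was within the first 500 bases in Nop56, Nop58, Fbl, Dkc1 and Nolc1 (bases 78, 34, 42, 271 and 11), but base 525 in Npm1 and base 11273 in Ncl. In scGRO–seq it was base 226 in Nolc1 and between base 1359 and base 20661 in the other 6. Few reads lay at any such base, at most 36, in AGTuC on Nop58. These profiles pool the samples of an assay and were not tested.

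**Figure D4:**
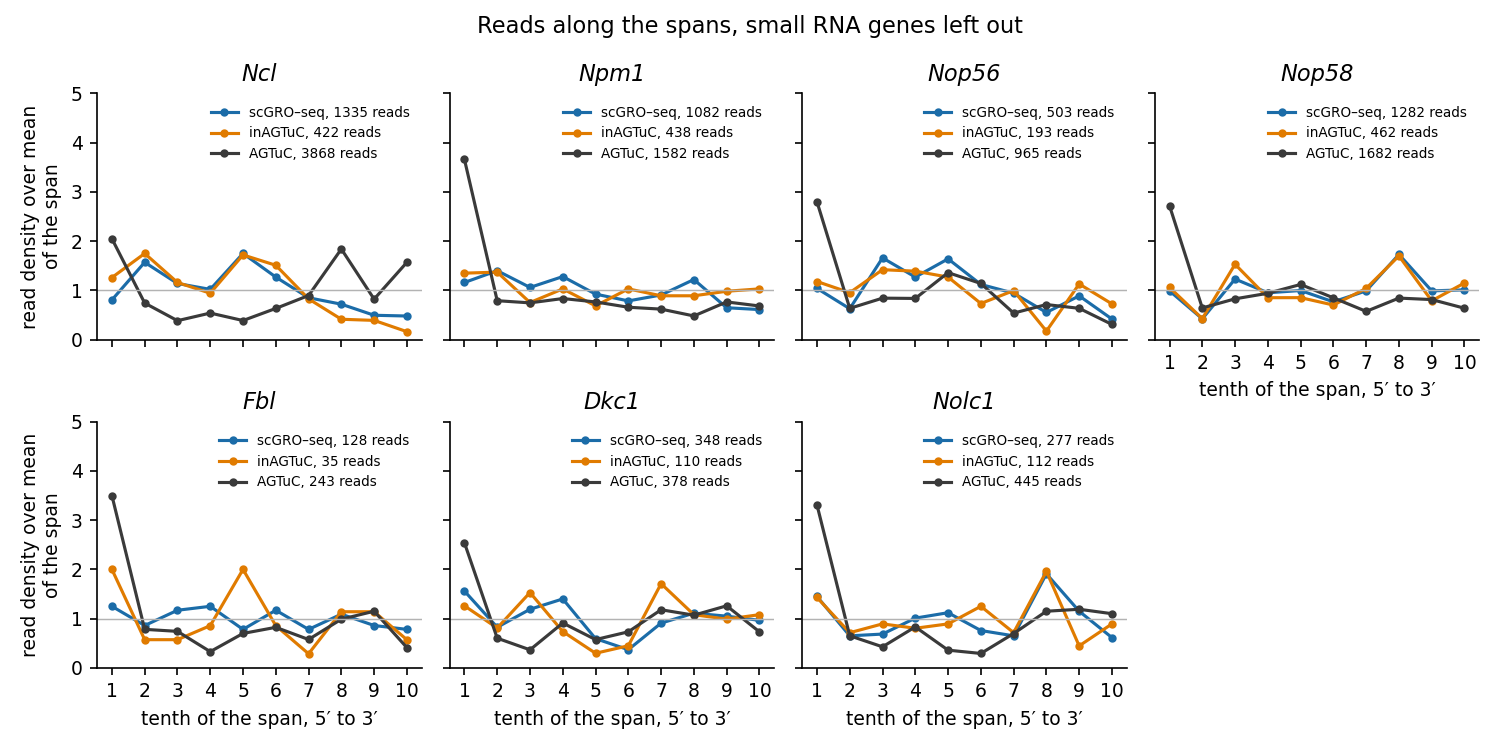
Read density in each of 10 equal parts of the span, 5′ to 3′ (x axis), over the mean density of that span (y axis, grey line at 1), with reads of small RNA genes left out and samples of an assay pooled. The first part is the highest in AGTuC in all 7 genes, and in Ncl the AGTuC line is also above the other 2 in the last 3 parts.

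Exons held more of the reads than their share of the bases in most cases. In Nop58 the exons are 7.58% of the counted bases and held 26.5% of scGRO–seq reads, 23.6% of inAGTuC reads and 21.8% of AGTuC reads. In Ncl, where 57.8% of the counted bases are exonic, they held 70%, 61.8% and 67.3%. Nolc1 had 61.4%, 58.9% and 53.9% in exons that are 37.8% of the bases, and Dkc1 40.5%, 23.6% and 22.2% in 21.6% of the bases. Npm1 and Nop56 were above the share of bases in intact nuclei and below it in AGTuC, with 21.6%, 22.4% and 11.6% against 16% for Npm1 and 59%, 55.4% and 34.7% against 47.8% for Nop56. Fbl had 10.2%, 11.4% and 18.1% against 12.2%. Without Exp261 c16 the inAGTuC share of Fbl was 15.8%, above its share of the bases, and that of Dkc1 was 19.3%, below it. Reads that span a splice junction can be lost in the mapping, since Bowtie2 does not split reads.

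In single cells the 7 genes were each seen in 5.02% to 35.5% of the 2512 cells when small RNA reads were left out. Nop58 was seen in 35.5% of cells, Ncl in 35.2%, Npm1 in 31.1%, Nop56 in 17%, Dkc1 in 11.8%, Nolc1 in 9.83% and Fbl in 5.02%. Between batches the share of cells ran from 20.2% to 44% for Ncl and from 1.8% to 7.27% for Fbl. With small RNA reads counted too, Ncl was seen in 89.6% of cells, Nop56 in 92.7% and Nop58 in 81.6%. Nop56, the gene with the shortest span, thus went from the fourth place to the first.

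Whether reads of a gene gather in the same cells was asked by counting cells with 2 or more reads and comparing them with the number expected when the cell identity of reads is permuted within each library. Ncl had 275 such cells where 272 were expected, Nop58 267 where 263 were expected, and Npm1 203 where 207 were expected. Nop56 had 70 against 58.8, Dkc1 36 against 35.5 and Nolc1 21 against 20.3, and Fbl had 2 against 4.93 and was not tested. The ratio of observed to expected was thus 0.979 to 1.04 in 5 of the 6 genes tested and 1.19 in Nop56, which was above expectation in 6 of 10 batches. A two-sided exact sign-flip test over the batches gave p = 0.0742 for Nop56 (adjusted p = 0.863), and 10 batches allow no p below 0.00195. An adjusted p under 0.05 would have needed 324 of the 8276 genes at this smallest p, and 57 were there, so that the test had little room for a call. It called 0 of the 6 genes and 0% of the 8276 genes tested, of which 320 were above and 164 below expectation at an unadjusted p under 0.05. The median ratio of all genes was 1.05. With small RNA reads counted, the ratio was 0.98 in Ncl, 0.982 in Nop56 and 0.985 in Nop58. Neighbouring reads of Nop56 in a cell were a median of 679 bp apart, and 16 of 77 were less than 50 bp apart, while those of Nop58 were 5484 bp apart. The spans differ too, with 4902 bp for Nop56 and 26505 bp for Nop58. In Nolc1, 9 of 30 were less than 50 bp apart. These distances were not set against an expected distance and were not tested.

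**Figure D5:**
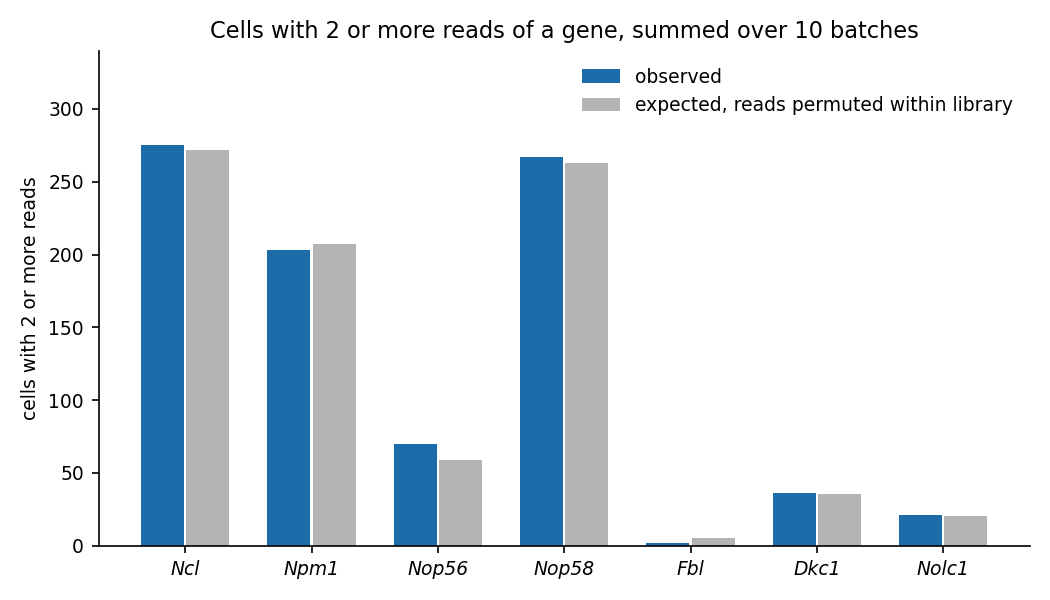
Cells with 2 or more reads outside small RNA genes (y axis, number of cells of 2512, summed over 10 batches), observed (blue) and expected when reads are permuted within their library (grey). The pairs of bars differ by fewer than 5 cells except in Nop56, with 70 observed and 58.8 expected.

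The 7 genes were not seen together in the same cells more often than expected. Over the 21 pairs, 2765 cells with both genes were observed and 2907 expected, a ratio of 0.951, which was above 1 in 4 of 10 batches and ran from 0.727 in Exp160 to 1.09 in Exp260. By pair, 4 of the 21 were above expectation. Nop56 and Fbl, core proteins of the same snoRNP, had 37 cells against 31.4, and Nop58 and Dkc1 had 157 against 149. Ncl and Nop58, the pair seen in most cells, had 398 against 408, and Nop56 and Nop58 had 179 against 195. Over all 34175010 pairs of 8277 genes the median ratio was 0.969 and 36.5% were above 1. Pairs share genes and cells, and no test was made.

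Across the 16 samples the levels of the 7 genes varied together, as a description. Each gene's log2 level correlated with the mean of the other 6 at Pearson r between 0.626, for Dkc1, and 0.851, for Ncl. Over the 14 samples without AGTuC the values ran from 0.474 for Nolc1 to 0.79 for Nop56. The genes whose log2 level was most like the mean of the 7, among 2299 genes with at least 10 reads in each sample, were Mkrn1 (r = 0.968), Eif4b (0.945), Eif4g2 (0.944), Rrn3 (0.903) and Tfrc (0.89), where the median of all such genes was 0.131. Without AGTuC these 5 were at 0.944, 0.909, 0.903, 0.88 and 0.855. The samples of an assay share its protocol and differ in depth, so that these values carry no p. Of the 7 genes, 5 had an entry in the RefSeq table of promoters (250 bases before to 50 after the start), and CACGTG, the E-box bound by MYC, was in 0 of the 5 on either strand, against 7.15% of 32851 promoters, while TATAAA was in that of Dkc1 alone, against 13.6%. This match lies at -189 from the start of Dkc1, on the opposite strand, and is no evidence of a working TATA box.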

How the data were processed

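Nascent RNA of V6.5 ES cells was analysed from the deposited lists of reads, 1 per library (76 scGRO–seq, 4 inAGTuC and 2 AGTuC). The authors removed adaptors with Cutadapt, split barcodes and UMIs with Flexbar, removed ribosomal reads, mapped the rest to mm10 with Bowtie2 and removed duplicates with UMI-tools. Versions are not given in the sources used here. The deposited score of each read is its mapping quality (3 to 44) and was used only as an alternative filter, so counts are counts of entries, without normalization by the authors.

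Cells with at least 1000 UMIs and 750 genes in libraries with at least 24 such cells were kept (35 of the 53 libraries of the 10 batches). Level was tested with voom in limma 3.58.1 (R 4.3.3) over genes with at least 10 reads in at least 6 of 16 samples, and shares on log2 ratios with 0.5 added to both counts, for genes with at least 10 reads in at least 12 samples and, for promoters, over 1500 bp. All tests were two-sided with Benjamini-Hochberg adjustment over all genes and a threshold of 0.05. Genes expected in fewer than 5 cells with 2 reads were not tested. The fits were also run on simulated data. Samples were drawn there independently, with no effect of experiment, so that these runs do not bear on the spread between experiments. The members, the other genes and the markers were chosen with earlier results of these data known. The text names the members, the small RNA genes of their spans, the listed genes with most reads (3) or the largest changes (3 each way), and the 5 genes most like the members. Other scGRO–seq batches entered alternatives only. The experiment as a random block (duplicateCorrelation) was added as an alternative after seeing the data. Python 3.11.15, numpy 2.4.6, scipy 1.17.1, pandas 2.3.3 and matplotlib 3.10.9 were used.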

Additional observations from a re-analysis of the deposited data

Results flagged for a closer look

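In 34 groups of values checked, 2 held a sample far from the others, and chance alone would give about 1 in 20. Npm1 had a level of 35.4 RPKM in the inAGTuC library Exp261 c16, where the other inAGTuC libraries had 10.6 to 14.7, a gap of 0.834 of the range. Dkc1 had a promoter share of 28.6% in the scGRO–seq batch Exp211, which is 2 of 7 reads with a 95% Wilson interval of 8.22% to 64.1%, where the other batches had 0% to 9.09%, a gap of 0.682 of the range. The cause of neither was tested.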

How the results depend on the processing

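The 3 calls of a higher small RNA share in inAGTuC than in AGTuC (Ncl, Nop56, Nop58) were made under every alternative run on this share. The count of members called lower in level was 6 in the main fit, with Fbl, which met the minimum of reads there only through AGTuC. It was 3 with all deposited reads, 1 (Fbl) with all scGRO–seq batches, 3 with the median of ratios and 3 without the first 500 bp. It was 3 with the experiment as a random block and 1 with that block and all batches, both added after seeing the data. With a sample left out it was 1 to 6. Members called lower in promoter share were 0 to 1 with a sample left out.

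Values that changed sign had not passed the test, and the cause was not tested. For scGRO–seq against inAGTuC in level, they were Nolc1 at 0.19 with all deposited reads and 0.11 with the median of ratios, and Ncl at -0.18, Npm1 at -0.25 and Nop58 at -0.13 with all batches, Nolc1 at 0.09 with the block, and Ncl at -0.27, Npm1 at -0.21, Nop58 at -0.18 and Dkc1 at -0.04 with the block and all batches, with -0.13 to 0.08 for Nolc1 and -0.09 to 0.56 for Npm1 with a sample left out. In promoter share against AGTuC, Ncl was 0.01 with 2 added to both counts, and Ncl, Npm1 and Dkc1 were 0.30, 0.27 and 1.06 with 250 bp, with -0.70 to 0.15 for Ncl with a sample left out. In promoter share of scGRO–seq against inAGTuC, Npm1 was 0.01 and Nop58 0.01 and Dkc1 0.09 with 2 added, Dkc1 0.12 with all deposited reads, Npm1 0.19 with all batches, 0.02 with the block and 0.45 with both, Npm1 0.13 and Dkc1 0.15 with a mapping quality of at least 20, Nolc1 -0.14 with the UMI minimum alone and -0.15 with 1000 bp, and Nop58 0.26 and Dkc1 0.13 with 250 bp. With a sample left out these were -0.49 to 0.09 for Dkc1, -0.24 to 0.49 for Nolc1, -0.38 to 0.41 for Nop58 and -0.81 to 0.05 for Npm1. In small RNA share, Dkc1 was -0.05 against AGTuC with 100 bp around small RNA genes, and scGRO–seq against inAGTuC ran from -0.05 to 1.23 for Nop56 and from -0.16 to 1.50 for Nop58 with a sample left out. For cells with 2 or more reads, observed over expected was 0.802 for Ncl and 0.991 for Dkc1 with all deposited reads, 0.998 for Ncl with 100 bp, 0.997 for Dkc1 with the UMI minimum alone, 0.98, 0.982, 0.985 and 0.993 for Ncl, Nop56, Nop58 and Dkc1 with small RNA reads, and 0.977 for Dkc1 and 0.987 for Nolc1 with near reads counted once, and with a batch left out 0.913 to 1.05 for Dkc1, 0.999 to 1.03 for Ncl and 0.953 to 1.36 for Nolc1. The replicate numbers follow the order of accession and pair no samples, so no fit used them as a block. Experiments do link scGRO–seq and inAGTuC libraries (Exp208, Exp234 and Exp261), but among the 16 samples Exp234 and Exp261 have an inAGTuC library only. Over these samples the random block joined the samples of Exp208 and the 2 AGTuC libraries of Exp125c, and no others. Its correlation was 0.646 for level, 0.638 for promoter share and 0.41 for small RNA share over 13 experiments. The block changed no call of promoter or small RNA share. Few reads per sample limit the promoter shares and Fbl.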
